A study of Mus musculus with 6 samples.

Results

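The 10 apolipoprotein genes Apoa1, Apoa2, Apoa4, Apoa5, Apob, Apoc1, Apoc2, Apoc3, Apoe and Apoh were followed through 6 mouse hepatocellular carcinomas (HCC), the liver cancer with features of hepatocytes. They were listed by name, and every array probe whose accession belongs to one of them was taken. This gave 17 of the 56605 probes of the array, for 10 of the 22911 genes that had a named probe. All 17 probes were well above background on all 6 arrays, and no spot of theirs was marked saturated.

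Apolipoproteins are the protein parts of lipoproteins, the particles that carry fat and cholesterol through blood. Most are made by hepatocytes and, for some, by the intestine. ApoB is the scaffold of very low density lipoprotein, apoA-I and apoA-II are the main proteins of high density lipoprotein (HDL), apoE is a ligand for uptake receptors, and the C apolipoproteins set how fast lipoprotein lipase and the receptors act on a particle. Several of the genes lie beside each other, with Apoa1, Apoc3, Apoa4 and Apoa5 in that order on chromosome 9, and Apoc2, Apoc4, Apoc1 and Apoe in that order on chromosome 7.

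Frozen tumours of C57BL/6 mice were measured, 1 tumour per array and 2 tumours in each of 3 groups. The Albumin-derived tumours without CLC came from Alb-AID mice killed at 90 weeks of age. The Epcam-derived tumours without CLC and the Epcam-derived tumours with CLC both came from Epcam-AID mice that had received tamoxifen and a diet with 0.1% DDC, a compound that injures bile ducts, for 8 months, and the series calls them derived from DPC, ductular progenitor cells. All mice carried a line named for AID, the usual name of a DNA-mutating enzyme, the Albumin-derived controls included. The labels expand neither CLC nor AID, describe no allele and do not say whether tumours came from separate mice, so p-values measure the spread between these tumours alone. Cell origin, diet and tamoxifen differ together between Albumin-derived and Epcam-derived tumours and cannot be told apart, and the labels give no age for the Epcam-AID mice.

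Signals are given as the log2 of the processed signal minus the array's 75th percentile, so that 1 unit is a doubling. That percentile lay between 285 and 488 signal units, and 54.1% to 66.2% of spots were well above background. The Albumin-derived tumours and Epcam-derived tumour 1 with CLC shared slide 1, and the other 3 tumours shared slide 2. All 19 hepatocyte markers that were tested were well above background on every array. With 2 arrays a group, the number of arrays limits the precision. In these bulk samples fewer cells of a type and less RNA per cell cannot be told apart.

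Of the 10 genes, 8 had a promoter in the RefSeq table, and Apoc1 and Apoc3 had none there. The 250 bases before the start of Apoa1, Apoa4 and Apoa5 are shown, 5′ to 3′ on the plus strand of GRCm38.p6, because these chromosome 9 neighbours gave some of the least alike signals among the 10 genes. The windows are chr9:46228380-46228629 for Apoa1, chr9:46240594-46240843 for Apoa4 and chr9:46268358-46268607 for Apoa5. Capitals mark a motif found by letter search.
Apoa1: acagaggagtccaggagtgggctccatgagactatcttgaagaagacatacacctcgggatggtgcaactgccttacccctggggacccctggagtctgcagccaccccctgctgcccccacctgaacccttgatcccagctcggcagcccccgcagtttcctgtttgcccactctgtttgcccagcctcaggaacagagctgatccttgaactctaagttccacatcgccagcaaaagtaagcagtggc
Apoa4: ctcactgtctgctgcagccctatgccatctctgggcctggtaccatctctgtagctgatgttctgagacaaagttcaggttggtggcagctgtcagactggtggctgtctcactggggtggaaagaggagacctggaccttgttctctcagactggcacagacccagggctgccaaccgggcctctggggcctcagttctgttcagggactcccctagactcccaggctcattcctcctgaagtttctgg
Apoa5: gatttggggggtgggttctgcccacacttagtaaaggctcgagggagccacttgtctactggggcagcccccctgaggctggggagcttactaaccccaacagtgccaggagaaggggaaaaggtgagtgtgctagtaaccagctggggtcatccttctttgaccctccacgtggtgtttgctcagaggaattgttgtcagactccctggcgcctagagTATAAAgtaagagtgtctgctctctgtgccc

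In the promoters of the 8 genes, 4 motifs were searched on both strands, namely TATAAA (the TATA box), AGGTCA (a nuclear receptor half-site), CAAAGTC (an HNF4-type site) and GTTAAT (an HNF1-type half-site). Apoa5 held TATAAA with its first base at position -31 from the start shown, and at -56 from a second start in the table, which is the same string. TATAAA was also found in Apob at -60, in 1 of the Apoa2 entries at -212 and in 1 of the Apoe entries at -96, and on the minus strand there at -100. AGGTCA was found in Apoc2 at -115 and, on the minus strand, in Apoh at -215 and in another Apoa2 entry at -238. GTTAAT was found in Apoc2 at -89 and, on the minus strand, in another Apoe entry at -172. The Apoa1 and Apoa4 windows held none of the 4 strings, which says only that these letters are not in these windows. Among all 32851 promoters of this length, 12.4% held TATAAA, 14.0% AGGTCA, 3.84% CAAAGTC and 6.43% GTTAAT. A match is a description of letters and not a binding site.

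None of the 10 genes passed the test in any of the 3 comparisons (limma, adjusted p over 27412 features). The members separated by how much they varied between tumours, both over all 6 and within a label. Over all 6, Apoa4, Apoa5 and Apoc3 differed 156-fold, 32.5-fold and 10.6-fold between the highest and the lowest tumour. For the other 7 genes that ratio lay between 1.72 and 3.21. The pooled SD within groups was 2.91 log2 units for Apoa4, 1.45 for Apoa5 and 1.19 for Apoc3, against a median of 0.35 over all features, and 99.9%, 97.3% and 95.1% of features had a smaller one. At the other end, Apoc1 had 0.23, Apoe 0.25 and Apoh 0.27.

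**Figure D1:**
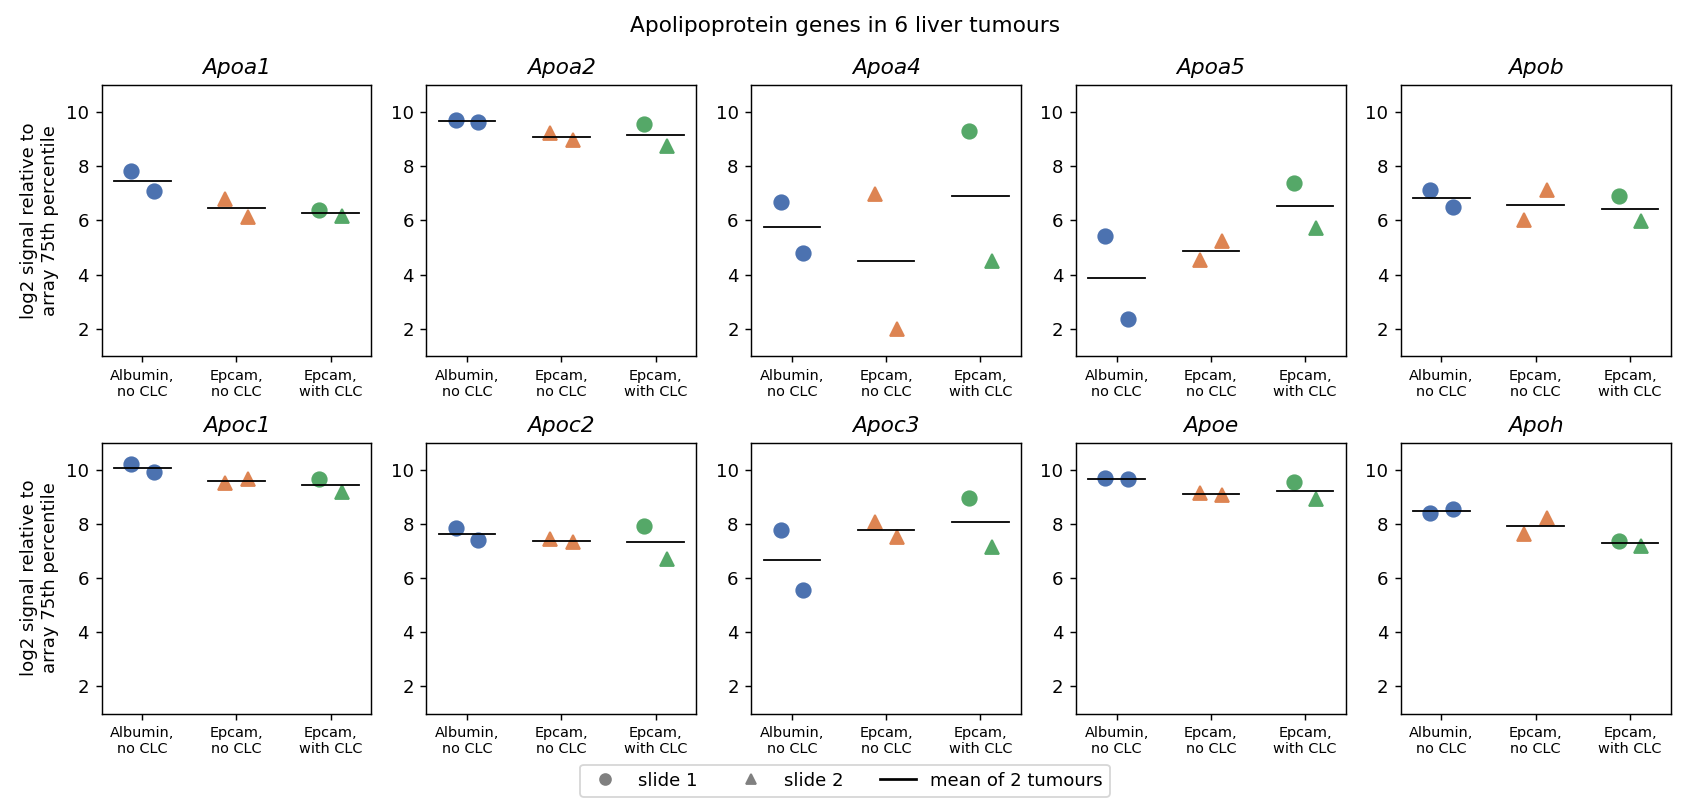
Each panel plots 1 gene as log2 signal relative to the array's 75th percentile for the 3 tumour groups. Points are tumours, circles on slide 1 and triangles on slide 2, and bars are means of 2 tumours. Apoa4 spans 2.00 to 9.29 while Apoe stays between 8.92 and 9.70.

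Apoa4 encodes a lipid-binding apolipoprotein best known from intestine, which mouse liver also makes. Its log2 signal was 6.68 and 4.81 in Albumin-derived tumours 1 and 2, 6.97 and 2.00 in the Epcam-derived pair without CLC, and 9.29 and 4.52 in the pair with CLC. The 3 groups overlapped. Tumours of the same label differed 3.66-fold, 31.3-fold and 27.1-fold in that order. Tumour 1 was the higher in each group, although the labels give replicate numbers no shared meaning. Tumours with CLC exceeded the Epcam-derived pair without it by 2.42 ± 2.14 (SE, n = 2 per group; limma adjusted p = 0.999). It ranged from -0.07 to 4.90 when 1 tumour was left out, with -0.07 reached without Epcam-derived tumour 2 without CLC, and it was 0.03 within slide 2. Epcam-derived tumours without CLC differed from Albumin-derived ones by -1.25 ± 2.14 (limma adjusted p = 0.772), and those with CLC by 1.16 ± 2.14 (limma adjusted p = 0.826). The first of these was 1.23 without Epcam-derived tumour 2 without CLC, and the second was -1.22 without Epcam-derived tumour 1 with CLC.

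Apoa5 encodes an apolipoprotein that promotes triglyceride clearance by lipoprotein lipase. Its log2 signal was 5.42 and 2.36 in the Albumin-derived tumours, 4.55 and 5.23 in the Epcam-derived pair without CLC, and 7.38 and 5.72 in the pair with CLC. On its brightest probe both tumours with CLC stood above the other 4, while on its other probe they overlapped with Albumin-derived tumours. The difference was 1.66 ± 1.08 against Epcam-derived tumours without CLC (limma adjusted p = 0.999) and 2.66 ± 1.08 against Albumin-derived tumours (limma adjusted p = 0.317), so neither passed. The lowest tumour, Albumin-derived tumour 2, sets much of the second value, which was 1.13 without it and 4.19 without Albumin-derived tumour 1. Epcam-derived tumours without CLC differed from Albumin-derived ones by 1.0 ± 1.08 (limma adjusted p = 0.632), and by -0.53 without Albumin-derived tumour 2.

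Apoc3 encodes an inhibitor of lipoprotein lipase and of particle uptake. Its log2 signal was 7.79 and 5.56, 8.06 and 7.51, and 8.96 and 7.15 in the same order of groups. As for Apoa5, the highest value was in Epcam-derived tumour 1 with CLC and the lowest in Albumin-derived tumour 2, and the groups overlapped in all comparisons. The differences from Albumin-derived tumours were 1.11 ± 0.90 without CLC (limma adjusted p = 0.525) and 1.38 ± 0.90 with CLC (limma adjusted p = 0.51). Without Albumin-derived tumour 2 they were -0.01 and 0.27. With and without CLC differed by 0.28 ± 0.90 (limma adjusted p = 0.999).

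Markers of other cell types were read beside these 3 genes. Of 10 enterocyte markers, 7 did not pass the filter on dim probes, among them Alpi, Sis, Cdx1 and Cdx2. The summed level of the 3 tested was 4.35 to 6.83 over the tumours. Of these Fabp2, a fatty acid binding protein, read 5.87 and 3.48, 3.39 and 2.56, and 6.18 and 3.86, with the same highest and lowest tumour as Apoa4. Tff3 and Vil1, the other 2, had another highest tumour. Of 10 adipocyte and lipid droplet markers, Adipoq, Plin1 and Retn did not pass it. The summed level of the 7 tested was 6.07 and 2.99, 5.75 and 7.38, and 8.00 and 6.72, lowest in Albumin-derived tumour 2 and highest in Epcam-derived tumour 1 with CLC, as for Apoa5 and Apoc3. Among them Cidec, a lipid droplet protein, read 0.91 and -0.99, 1.22 and 1.1, and 7.0 and 3.95. Pck1 and Plin4 had the same lowest and highest tumour. Cfd was well above background on 2 arrays only, those with CLC, and passed the filter through them. That its highest tumour lies there was set by the filter. The other markers differed in part. Lipe and Car3 shared the lowest tumour, but Lipe was highest in Albumin-derived tumour 1 and Car3 in Epcam-derived tumour 2 without CLC. Lep was lowest in Epcam-derived tumour 1 with CLC. Creb3l3, a liver transcription factor of triglyceride genes, read 5.70 and 4.61, 5.13 and 5.49, and 5.87 and 5.28, with the same lowest and highest tumour as Cidec. Markers of other lists shared this lowest and highest tumour too, among them the macrophage and Kupffer markers Clec4f, Vsig4 and Cd5l. So did the endothelial markers Stab2, Lyve1, Clec4g and Oit3. Other genes of these lists did not. Lyz2 and Gpnmb were highest in Albumin-derived tumour 2, and Cd34 in Epcam-derived tumour 1 without CLC. Fabp2, Cidec, Creb3l3 and these macrophage and endothelial genes were picked after their values were seen. The part of all these genes in the result was not tested.

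Apoa1 encodes the main HDL protein. Its log2 signal was 7.81 and 7.09 in the Albumin-derived tumours, 6.78 and 6.13 in the Epcam-derived pair without CLC, and 6.39 and 6.15 in the pair with CLC. Both Albumin-derived tumours stood above all 4 Epcam-derived ones. The differences were -1.0 ± 0.38 without CLC (limma adjusted p = 0.234) and -1.18 ± 0.38 with CLC (limma adjusted p = 0.241). Without scaling between arrays they were -0.42 and -0.77, and with quantile normalization -0.52 and -0.71. Leaving out 1 tumour gave -1.35 to -0.64 and -1.54 to -0.82. With and without CLC differed by -0.18 ± 0.38, and the 2 groups overlapped.

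Apoh encodes beta-2-glycoprotein I, a plasma protein that binds anionic phospholipid. Its log2 signal was 8.41 and 8.55, 7.61 and 8.22, and 7.36 and 7.20. The 3 groups did not overlap, in the order Albumin-derived, Epcam-derived without CLC, Epcam-derived with CLC. Tumours with CLC differed from Albumin-derived ones by -1.21 ± 0.30 (limma adjusted p = 0.173), the smallest adjusted p of the 10 genes, and from Epcam-derived ones without CLC by -0.63 ± 0.30 (limma adjusted p = 0.999). Epcam-derived tumours without CLC differed from Albumin-derived ones by -0.57 ± 0.30 (limma adjusted p = 0.35), a value that was 0.01 without scaling. The difference between tumours with CLC and Albumin-derived tumours lay between -1.29 and -0.80 under the 18 alternatives run.

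Apoe, Apoa2 and Apoc1 were the 3 members with a mean signal over 100000 units before scaling. Apoe is the receptor ligand, Apoa2 encodes the second HDL protein, and Apoc1 encodes a small apolipoprotein that slows particle uptake. The log2 signal of Apoe was 9.70 and 9.64, 9.14 and 9.08, and 9.53 and 8.92. Apoa2 read 9.69 and 9.62, 9.21 and 8.98, and 9.54 and 8.73. Apoc1 read 10.20 and 9.90, 9.51 and 9.65, and 9.66 and 9.19. For each gene both Albumin-derived tumours stood above all 4 Epcam-derived ones, and all 3 arrays of slide 1 stood above all 3 of slide 2. The second pattern held for 10.6% of all features.

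Before scaling, the signal of the brightest Apoe probe was nearly level across tumours. It was 237200 and 244012 in the Albumin-derived tumours, 239060 and 246720 in the Epcam-derived pair without CLC, and 232914 and 236789 in the pair with CLC, a ratio of 1.06 between highest and lowest. The same ratio was 1.21 for Apoa2 and 1.44 for Apoc1, again on the brightest probe. The other probes were less level, with signals of 111844 to 143551 for Apoe and 154547 to 207725 for Apoa2. The 75th percentile that was subtracted differed 1.72-fold, from 285 to 315 on slide 1 and from 424 to 488 on slide 2, and the scaled ratio of Apoe was 1.72. The 92 features with a mean signal over 100000, these 3 among them, had a median ratio of 1.44 before scaling and 1.75 after, while over all features the medians were 2.64 and 2.19. The lowest signal at which an array counts a spot as saturated was 777875.

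**Figure D2:**
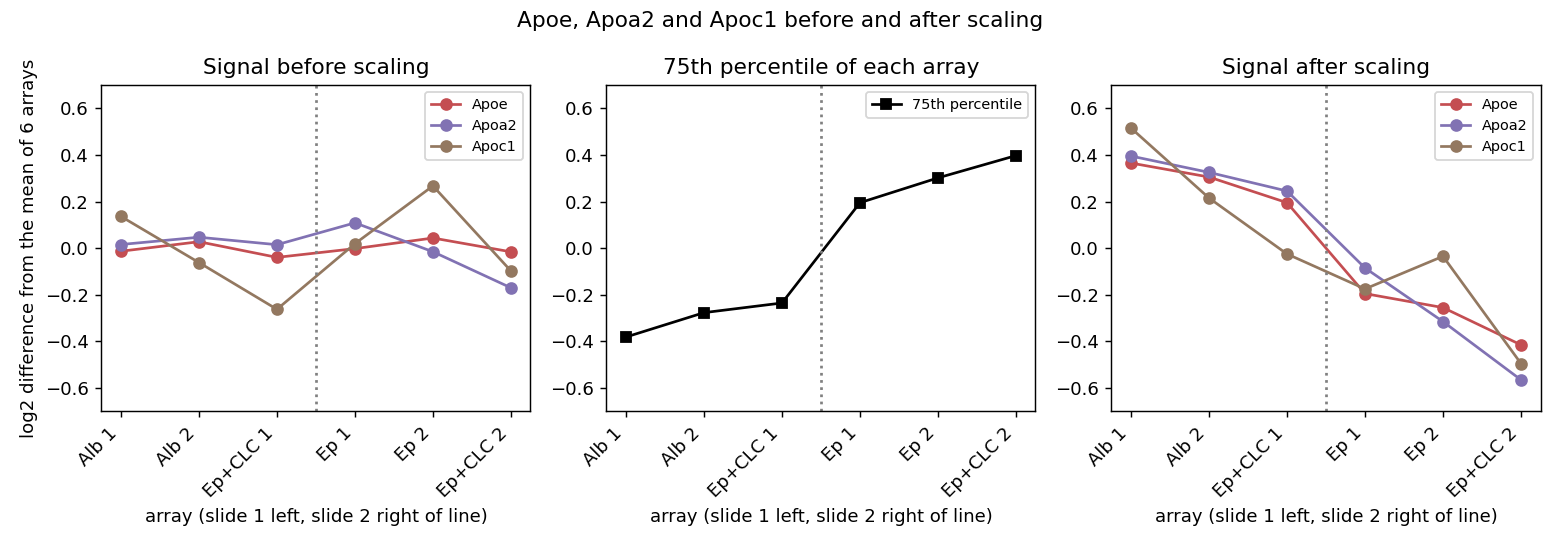
The panels plot log2 differences from the mean of 6 arrays for Apoe, Apoa2 and Apoc1 before scaling (left), for the 75th percentile of each array (middle) and for the same genes after scaling (right). Arrays stand in order of slide, with the dotted line between slides 1 and 2 (Alb, Albumin-derived; Ep, Epcam-derived without CLC; Ep+CLC, Epcam-derived with CLC). The 75th percentile differs 1.72-fold, and so does the brightest Apoe probe after scaling, against 1.06-fold before.

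The differences of these 3 genes depended on the scaling. Against Albumin-derived tumours, Apoe differed by -0.56 ± 0.30 without CLC (limma adjusted p = 0.346) and by -0.44 ± 0.30 with CLC (limma adjusted p = 0.52). Without scaling the values were 0.01 and -0.03, and with quantile normalization -0.16 and -0.03. Apoa2 differed by -0.56 ± 0.35 and -0.52 ± 0.35, which became 0.02 and -0.11 without scaling. Apoc1 differed by -0.47 ± 0.29 and -0.63 ± 0.29, which became 0.11 and -0.22. Within slide 1, tumour 1 with CLC differed from the Albumin-derived tumours by -0.14 for Apoe, -0.11 for Apoa2 and -0.39 for Apoc1. With and without CLC, the 3 genes differed by 0.12 ± 0.30, 0.04 ± 0.35 and -0.16 ± 0.29 in the same order.

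Apob and Apoc2, an activator of lipoprotein lipase, overlapped between groups in all comparisons. Apob read 7.13 and 6.51, 6.03 and 7.13, and 6.89 and 5.97. Apoc2 read 7.83 and 7.39, 7.43 and 7.34, and 7.93 and 6.72. Neither showed a group that stood apart. The differences of Apob were -0.24 ± 0.52 and -0.39 ± 0.52 against Albumin-derived tumours and -0.15 ± 0.52 between tumours with and without CLC. Those of Apoc2 were -0.22 ± 0.45, -0.28 ± 0.45 and -0.06 ± 0.45 (SE, n = 2 per group; limma adjusted p from 0.754 to 0.999 for both genes). Against Albumin-derived tumours, both genes changed sign with quantile normalization, to 0.22 and 0.10 for Apob and to 0.26 and 0.19 for Apoc2.

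**Figure D3:**
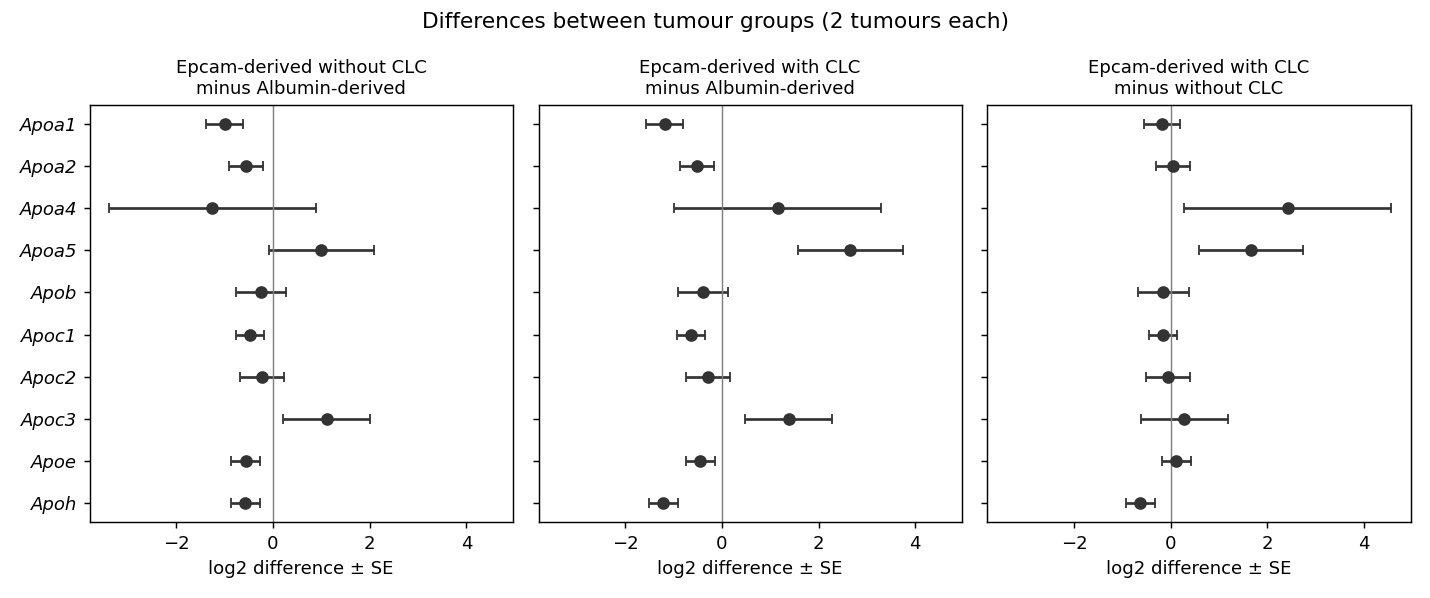
Points are fitted log2 differences of the 10 genes in the 3 comparisons, and bars are ± 1 SE from the fit over 6 arrays, 2 tumours per group. The widest bars belong to Apoa4 (2.14) and the largest difference to Apoa5, 2.66 between tumours with CLC and Albumin-derived tumours. None passed the test.

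Counted over the list, Epcam-derived tumours without CLC were lower than Albumin-derived ones in 8 of 10 genes, as were 46.5% of features, with a median difference of -0.52 against 0.06 over all features. None of the 10 was called, against 0.244% of all features (67, of which 16 higher and 51 lower), and 1 of 10 had an unadjusted limma p under 0.05, against 20.0% of features. In 5 of 10 (Apoa1, Apoa2, Apoc1, Apoe and Apoh) the groups did not overlap and the Epcam-derived tumours were lower, as in 24.8% of features, and in none were they higher without overlap, as in 30.4% of features. Between tumours with CLC and Albumin-derived tumours, 7 of 10 were lower, as were 50.7% of features, with a median of -0.42 against -0.01. None was called against 0.0620% of features (17, of which 3 higher and 14 lower), 2 had an unadjusted limma p under 0.05 against 16.0%, and the same 5 genes did not overlap and were lower, as in 27.0% of features. Apoa5 alone did not overlap and was higher, as in 23.8%, though these groups overlapped on its other probe. These 2 comparisons share the Albumin-derived tumours.

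The lean of the list towards lower values depended on the scaling and the slide. It was kept with the median in place of the 75th percentile, with 8 and 7 of 10 lower and medians of -0.60 and -0.48 without and with CLC, and with normexp, with medians of -0.40 and -0.35. Both Albumin-derived tumours stood above all 4 Epcam-derived ones in 5 of the 10 genes and in 18.2% of features. This count was 0 of 10 with quantile normalization, against 16.6% of features, and 0 of 10 without scaling, against 4.59%. The median difference of the members without CLC against Albumin-derived tumours was -0.02 with quantile normalization, 0.06 without scaling and 0.47 with slide as a block. With CLC it was 0.03, -0.01 and -0.02. Without scaling, all features shifted by a median of 0.64 and 0.40. The calls over all features then numbered 350 (225 higher and 125 lower) without CLC and 112 (54 higher and 58 lower) with CLC, and none of the members was among them.

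With CLC against Epcam-derived tumours lacking it, 5 members were higher and 5 lower, while 56.9% of all features were lower, with a median for the members of -0.01 against -0.06 over all features. None was called, against 0% of features, and none had an unadjusted limma p under 0.05, against 3.48% of features. Apoa5 was the 1 gene of 10 with groups that did not overlap and a higher level with CLC, as in 10.3% of features. Apoh was the 1 gene with a lower level and no overlap, as in 19.8%.

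Hepatocyte markers were read beside the members. Of 19 tested, 17 were lower in Epcam-derived tumours without CLC than in Albumin-derived ones and 18 were lower in those with CLC, with medians of -0.79 and -0.91. Over all features 46.5% and 50.7% were lower. Without scaling 11 and 14 were lower, beside 16.9% and 23.4% of features. With quantile normalization 14 and 14 were lower, with medians of -0.36 and -0.46. There 5 of 10 members were lower in each, and 45.5% and 49.1% of features. Apcs, an acute phase plasma protein, was the 1 called, at -4.51 without CLC (limma adjusted p = 0.0417), beside 0.244% of features. No marker was called with slide as a block, and no feature at all when any 1 of the 4 tumours compared was left out. Their summed level was 13.12 to 13.18 in Albumin-derived tumours, 12.11 to 12.43 without CLC and 12.08 to 12.47 with CLC, and all 19 were well above background on each array. The members' summed level was 11.73 to 12.01, 11.42 to 11.47 and 11.03 to 12.03, and the last range covers that of Albumin-derived tumours. Macrophages also make apoE. Of their 20 markers 18 were higher without CLC and 16 with CLC than in Albumin-derived tumours, none of them called, and their summed level was 6.28 to 7.14, 6.93 to 7.28 and 7.23 to 7.78. Biliary and ductular markers had summed levels of 4.18 to 5.78, 5.43 to 5.81 and 6.17 to 6.95, made up mostly of Spp1 and Anxa4. Spp1 read 1.99 and 5.20, 5.41 and 4.81, and 5.88 and 6.73. Epcam and Krt7 were well above background on 4 arrays each and Sctr on 3. Of these markers 11 of 14 were higher with CLC than in the Epcam-derived pair lacking it, none of them called, while 56.9% of features were lower. The filter admits a dim marker through a group where it is high. The direction of the dim markers in this count may therefore be set by the filter. The part of these cells in the values of the members was not tested.

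The 10 genes were then compared in pattern, by the root mean square distance in log2 units between their profiles over the 6 tumours, each centred on its own mean. Apoa2 and Apoe were the closest pair at 0.09, and Apoc1 was nearest to Apoe at 0.15. Apoc2 was nearest to Apoa2 at 0.22, Apoh to Apoc1 at 0.33, Apob to Apoc1 at 0.34 and Apoa1 to Apoc1 at 0.37. Apoa5 and Apoc3 were nearest to each other at 0.76, and Apoa4 was nearest to Apoc3 at 1.87. These distances rest on 6 tumours that share slides and scaling, so they describe these arrays.

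Chromosome 7 neighbours lay closer together than chromosome 9 neighbours, on a measure that is smaller for genes with a smaller spread. The 3 pairs of members on chromosome 7, Apoc2, Apoc1 and Apoe, lay 0.15 to 0.27 apart with a median of 0.25, and Apoa2 of chromosome 1 was as near to Apoe and Apoc2 as their neighbours. The 6 pairs among Apoa1, Apoc3, Apoa4 and Apoa5 lay 0.76 to 2.18 apart with a median of 1.83. The 36 other pairs had a median of 0.78. On chromosome 9 Apoc3, Apoa4 and Apoa5 each had a neighbour as the nearest member, and Apoa1 did not. Apoc4, which lies between Apoc2 and Apoc1 and is no member, read 6.23 and 5.15, 5.41 and 5.06, and 6.11 and 5.05. Within the chromosome 9 group Apoa1 had its highest value in Albumin-derived tumour 1, whereas the other 3 genes had theirs in Epcam-derived tumour 1 with CLC. The promoters of Apoa1, Apoa4 and Apoa5 printed above belong to this group.

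**Figure D4:**
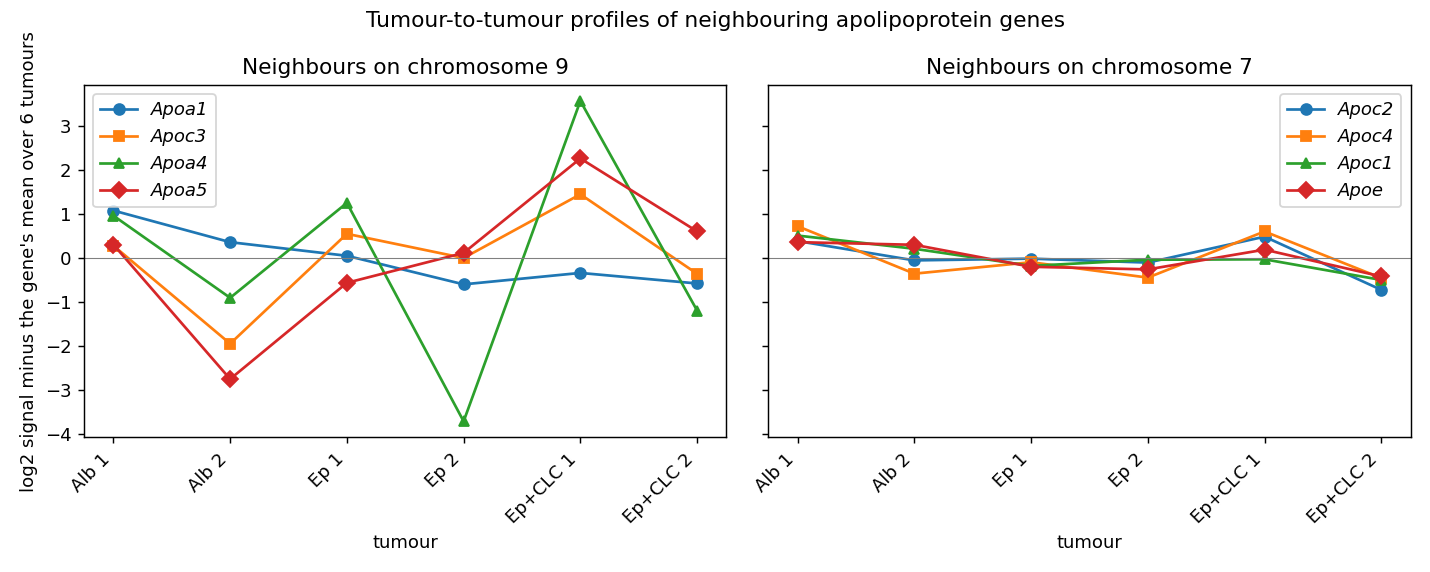
Lines join the log2 signals of neighbouring genes in the 6 tumours, each minus the gene's own mean, for chromosome 9 (left) and chromosome 7 (right). Alb marks Albumin-derived tumours, and Ep and Ep+CLC mark the Epcam-derived ones that lack or hold CLC. The chromosome 9 genes spread over several log2 units, with a median distance of 1.83 between pairs, and the members on chromosome 7 stay within a median of 0.25.

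Second probes gave a check on the variable genes. The other Apoa5 probe read 2.57 and -0.48, 1.27 and 2.24, and 4.61 and 2.42, with the same lowest and highest tumour. There Epcam-derived tumour 2 with CLC lay below Albumin-derived tumour 1, so those groups overlapped. One more Apoc3 probe read 6.21 and 3.84, 6.52 and 6.04, and 7.71 and 5.57, again with the same lowest and highest tumour. The remaining, dim Apoc3 probe read between -1.86 and 0.14, and its difference between tumours with and without CLC was -0.42, opposite in sign to the brightest probe. The other Apob probe gave 0.10 and 0.06 against Albumin-derived tumours, also opposite in sign. Second probes of Apoa2, Apoc2 and Apoe kept the sign of the brightest one in the 2 comparisons with Albumin-derived tumours. Apoa4 had a single probe.

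Genes that act on the same particles were listed in 6 groups. With against without CLC none of them was called, and 8 of 10 lipase genes, 12 of 18 genes of apoB assembly, 9 of 14 receptor genes, 5 of 12 HDL genes, 18 of 32 regulators and 10 of 15 other apolipoprotein genes were higher. Over all features 56.9% were lower in that comparison. The lipase count includes Lipg, which was well above background only in the 2 tumours with CLC. It passed the filter through them, so its direction in this count was set by the filter. Among lipases and their regulators 1 of 10 was called in each comparison with Albumin-derived tumours. Of all features 0.244% were called without CLC and 0.0620% with CLC. Lpl, lipoprotein lipase, which apoC-II activates, fell in tumours with CLC against Albumin-derived ones. Its log2 signal was 5.61 and 5.31, 4.12 and 3.91, and 2.22 and 2.31, and the 3 groups did not overlap. Tumours with CLC differed from Albumin-derived ones by -3.20 ± 0.26 (limma adjusted p = 0.046), those without CLC by -1.44 ± 0.26 (limma adjusted p = 0.0914), and with against without CLC by -1.75 ± 0.26 (limma adjusted p = 0.729). The call was lost, at an adjusted p of 0.0865 to 0.197, when any 1 of the 6 tumours was left out, and at 0.218 with no filter, 0.0503 without scaling, 0.146 with slide as a block, 0.214 within slide 1, 0.0824 with the replicate block, 0.0582 with the mean of probes and 0.0865 in a fit of the 4 arrays compared.

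Angptl6, a secreted angiopoietin-like protein, fell in Epcam-derived tumours without CLC. It read 4.35 and 4.57, -0.37 and -0.01, and 1.11 and -0.04, so that both Albumin-derived tumours stood far above the rest. The differences from them were -4.65 ± 0.43 without CLC (limma adjusted p = 0.0408) and -3.93 ± 0.43 with CLC (limma adjusted p = 0.0739). The second passed with normexp, at an adjusted p of 0.0234, and without scaling, at 0.0301, and its adjusted p lay between 0.0609 and 0.228 under the other alternatives. The first call was lost, at an adjusted p of 0.0521 to 0.172, when any 1 of the 6 tumours was left out, and at 0.128 with no filter, 0.372 with slide as a block, 0.0739 with the replicate block and 0.0521 in a fit of the 4 arrays compared. In the same list Pnpla2, the lipase of stored triglyceride, differed by 1.05 ± 0.24 and 0.97 ± 0.24 from Albumin-derived tumours (limma adjusted p = 0.123 and 0.171).

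None of the 12 genes of HDL formation and remodelling was called. Under normexp 1 was in each comparison with Albumin-derived tumours, beside 135 and 66 of 27412 features. All 12 were lower without CLC than in Albumin-derived tumours with a median of -0.55, and 10 of 12 were lower with CLC with a median of -1.07. Over all features 46.5% and 50.7% were lower. Without scaling 6 of 12 and 8 of 12 were lower, with medians of 0.03 and -0.66. Over all features 16.9% and 23.4% were then lower, with medians of 0.64 and 0.40. With quantile normalization 9 of 12 and 10 of 12 were lower, with medians of -0.43 and -0.89, beside 45.5% and 49.1% of features. Npc1, which moves cholesterol out of lysosomes, differed by -1.63 ± 0.25 and -1.98 ± 0.25 (limma adjusted p = 0.074 and 0.0751). Abca1, which loads lipid onto apoA-I, differed by -0.43 ± 0.27 and -0.87 ± 0.27 (limma adjusted p = 0.42 and 0.23). Pon1, an HDL-bound esterase, read 4.63 and 3.35, 1.77 and 1.67, and 3.73 and 3.43, which put Epcam-derived tumours without CLC below both other groups without passing the test (limma adjusted p = 0.103 and 0.999). Abcg5 and Abcg8, the paired sterol exporter, differed by -1.23 ± 0.26 and -1.13 ± 0.29 between tumours with and without CLC (limma adjusted p = 0.999).

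None of the 18 genes of apoB assembly, editing and secretion was called. Against Albumin-derived tumours, 14 were lower without CLC and 15 with CLC, with medians of -0.57 and -0.45, beside 46.5% and 50.7% of features. Without scaling 9 and 10 were lower, beside 16.9% and 23.4% of features. With quantile normalization 14 and 13 were lower, with medians of -0.41 and -0.34, beside 45.5% and 49.1% of features. Mttp, which loads lipid onto apoB, differed by 0.22 ± 0.49 and 0.66 ± 0.49 (limma adjusted p = 0.83 and 0.558). Apobec1, the enzyme that edits the apoB message, differed by 0.29 ± 0.36 and 0.60 ± 0.36 (limma adjusted p = 0.673 and 0.472). The chaperone Hsp90b1 differed by -2.08 ± 0.32 and -1.81 ± 0.32 (limma adjusted p = 0.0769 and 0.114).

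Among 14 tested genes of lipoprotein receptors and uptake none was called. Against Albumin-derived tumours 7 were lower without CLC and 6 with CLC, beside 46.5% and 50.7% of features. Scarb1, the HDL receptor, differed by 0.44 ± 0.53 and -0.29 ± 0.53 from Albumin-derived tumours. Cd36, a fatty acid and lipoprotein receptor, differed by 2.02 ± 0.62 and 2.46 ± 0.62 (limma adjusted p = 0.181 and 0.171).

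None of 32 regulators of apolipoprotein genes was called, and 19 and 16 of them were lower, beside 46.5% and 50.7% of features. Hnf4a, a nuclear receptor that drives many apolipoprotein genes in liver, read 6.26 and 5.98, 5.87 and 6.17, and 5.69 and 6.07, and its groups overlapped. Its differences from Albumin-derived tumours were -0.10 ± 0.29 and -0.24 ± 0.29, which became 0.34 and 0.21 with quantile normalization. Foxa3, a liver transcription factor, differed by -1.34 ± 0.31 and -1.90 ± 0.31 (limma adjusted p = 0.12 and 0.102), and the coactivator Ppargc1a by 2.19 ± 0.49 and 1.94 ± 0.49 (limma adjusted p = 0.115 and 0.17). Of 15 other apolipoprotein genes tested none was called, and 9 and 8 were lower, beside the same shares of features. Apof, found on lipoproteins of plasma, read 6.62 and 5.98, 5.18 and 5.44, and 5.92 and 5.50, a difference of -0.98 ± 0.34 without CLC (limma adjusted p = 0.205).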

How the data were processed

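Agilent Feature Extraction 11.5.1.1 read 1-colour arrays of Cy3-labelled RNA (0.1 µg per labelling), per the file headers and the labels' protocols. The deposited processed signal is an intensity after background subtraction and detrending, not scaled from array to array, per the file headers. The deposited value table holds the same intensity times 1 factor per array (1.64 to 2.42), not centred and in the same direction, with the origin of the factors not given in the sources used here. Its column medians were 61.9 and 55.0 for the Albumin-derived tumours, 80.0 and 74.1 for the Epcam-derived pair lacking CLC, and 73.9 and 78.0 for the pair with it.

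Here, control and outlier spots were left out (the array held 59305 spots that were not controls), the log2 of the signal was taken, each array's 75th percentile was subtracted, and replicate spots were averaged into a probe. Probes had to be well above background, by at least 0.5 of their spots, in both tumours of some group. Accessions were named from a RefSeq table of GRCm38.p6, used for names, gene order and promoters only, since the array design uses another build. The brightest of the kept probes stood for a gene, which gave 27412 features. All 6 arrays entered 1 limma 3.58.1 fit (lmFit, eBayes; R 4.3.3) with a coefficient per group, and two-sided p-values were adjusted (Benjamini-Hochberg) over every feature, calls being those under 0.05. Values after ± are SE. The fit was tested on simulated data. It called 19 of 100 features changed by 2 log2 units and 65 of 100 changed by 4, so many true changes were missed. Summed levels are the log2 of summed scaled signals.

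The members and all gene lists were chosen with earlier results of these data known. All 10 members are named. From each pathway list the text names genes past the threshold, some of the 3 with the smallest p in a comparison, and Mttp, Lpl, Hnf4a, Abca1, Scarb1 and Apobec1; some items covered by this rule are not reported here. Alternatives changed the filter, background correction, scaling, slide, replicate block, arrays fitted and probe choice. The files hold no mean signal, so normexp (offset 50) used the median signal in its place.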

Additional observations from a re-analysis of the deposited data

How the results depend on the processing

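No member was called under any alternative in any comparison (limma, threshold 0.05). With 2 tumours a group the number of arrays limits all of these results, and all 17 member probes were well above background. Every slide value rests on 1 tumour with CLC, and Epcam-derived tumours without CLC and Albumin-derived tumours share no slide, so that no value within a slide exists for them. Scaling by no factor was chosen after seeing the data. The cause of the changes below was not tested.

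Calls with against without CLC among Epcam-derived tumours numbered 0 under every alternative. Calls of Epcam-derived tumours without CLC against Albumin-derived ones numbered 67, and 1 with no filter, 32 with the filter on all 6 arrays, 135 with normexp, 106 with the median, 0 with slide as a block, 110 with the mean of probes, 16 in a fit of only the 4 arrays compared, 350 without scaling and 0 to 16 with 1 tumour left out. Calls of tumours with CLC against Albumin-derived ones numbered 17, and 1 with no filter, 66 with normexp, 66 with quantile normalization, 35 with the median, 0 with slide as a block, 0 within slide 1, 0 in a fit of only the 4 arrays compared, 112 without scaling and 0 with any 1 tumour left out. All features shifted by a median of -0.16 and -0.12 in these comparisons with normexp, by -0.18 and -0.14 with no filter and by 0.64 and 0.40 without scaling. The median difference of the members without CLC against Albumin-derived tumours moved from -0.52 to 0.47 with slide as a block.

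Deviations of tumours with the same replicate number correlated at -0.16, 0.06 and 0.23 across 27412 features. The labels do not say what such tumours share beyond the number, and this was not tested. With the replicate block the calls numbered 11 and 0 in the comparisons with Albumin-derived tumours and 0 with against without CLC, and no member was called.

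The other values are log2 differences whose sign turned, none of them called. Without CLC against Albumin-derived tumours, no scaling gave 0.02 for Apoa2, 0.34 for Apob, 0.11 for Apoc1, 0.36 for Apoc2, 0.01 for Apoe, 0.01 for Apoh, 0.15 for Abca1 and 0.48 for Hnf4a. Quantile normalization gave 0.22 for Apob, 0.04 for Apoc1, 0.26 for Apoc2 and 0.34 for Hnf4a. Slide as a block gave 0.26 for Apoa2, 3.51 for Apoa4, 0.68 for Apob, 1.00 for Apoc2, 0.04 for Apoe, -0.11 for Apobec1 and -0.08 for Scarb1. The mean of probes gave -0.19 for Scarb1. Leaving out 1 tumour gave -3.74 to 1.23 for Apoa4, -0.53 to 2.53 for Apoa5, -0.79 to 0.31 for Apob, -0.01 to 2.22 for Apoc3, -0.03 to 0.62 for Apobec1, -0.25 to 0.05 for Hnf4a, -0.32 to 0.76 for Mttp and -0.19 to 1.06 for Scarb1.

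With CLC against Albumin-derived tumours, no scaling gave 0.02 for Apob, 0.13 for Apoc2, 0.12 for Scarb1 and 0.17 for Hnf4a, and quantile normalization gave 0.10 for Apob, 0.19 for Apoc2 and 0.21 for Hnf4a. Slide as a block and the value within slide 1 both gave 0.07 for Apob and 0.33 for Apoc2. Leaving out 1 tumour gave -1.22 to 3.54 for Apoa4, -0.85 to 0.07 for Apob, -0.89 to 0.33 for Apoc2 and -0.72 to 0.14 for Scarb1. With against without CLC, no scaling gave -0.12 for Apoa2 and -0.05 for Apoe, and the mean of probes gave 0.07 for Hnf4a. Slide as a block and the value within slide 2 both gave -0.37 for Apoa2, -0.63 for Apoc3, -0.19 for Apoe, 0.04 for Hnf4a and -0.02 for Mttp. Leaving out 1 tumour gave -0.51 to 0.15 for Apoa1, -0.37 to 0.45 for Apoa2, -0.07 to 4.90 for Apoa4, -0.70 to 0.40 for Apob, -0.39 to 0.08 for Apoc1, -0.67 to 0.55 for Apoc2, -0.63 to 1.18 for Apoc3, -0.19 to 0.42 for Apoe, -0.33 to 0.04 for Hnf4a and -0.02 to 0.90 for Mttp.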
